A study of Rattus norvegicus with 6 samples.

Results

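The TRiC complex, also called CCT, is the chaperonin of the cytosol, and the genes of its 8 subunits were followed in rat myocardium with and without ischemia. The members were fixed by the composition of the complex, with earlier results of these data known. The 8 genes Tcp1, Cct2, Cct3, Cct4, Cct5, Cct6a, Cct7 and Cct8 were each found in 1 row of a table of 32623 genes. Total RNA was sequenced from 3 sham and 3 ischemia samples of myocardial tissue, from rats described as wild type and male. The ischemia rats underwent thoracotomy and ligation of the left anterior descending artery for 30 min, with ST-segment elevation as the sign of occlusion. The samples carry the same 30 min label in the sham group, for which no ligation is described. Whole tissue was taken, so each value is an average over cardiomyocytes and all other cells of the sample. The labels do not state that the replicates of a group came from separate animals, and p-values measure only the spread between these samples.

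TRiC is built from paired rings in which the 8 different but related subunits each hold a fixed place, and it folds proteins inside its chamber in cycles of ATP binding and hydrolysis. Actins and tubulins are its classic obligate clients, and many WD-repeat proteins also pass through it. Prefoldin hands unfolded actin and tubulin to the complex, and phosducin-like proteins act as cofactors. Tcp1, Cct2, Cct4 and Cct5 form the side of the ring that binds ATP strongly, and Cct3, Cct6a, Cct7 and Cct8 form the side that binds it weakly. In the heart, actin is the core of the thin filament of the sarcomere and tubulin forms the microtubules of the cardiomyocyte.

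The depth was high for these genes. Total counts ranged from 68529126 to 79591989 per sample, and the subunits together took between 74675 and 176889 of them, or 0.0951% to 0.245%. All 8 genes passed the filter on low values, a mean of at least 0.5 FPKM (fragments scaled by gene length and by library size), which 13964 genes passed. Their mean FPKM lay between the 86.4 and 96.8 percentiles of those genes. Some libraries stood apart. Reads of 2 Y-linked genes numbered 4 in sham replicate 1 and between 1762 and 4310 elsewhere, which goes against the description of that rat as male. The summed FPKM of 4 atrial markers ran from 215 to 48341 in sham and from 1279 to 9609.8 in ischemia. Sham replicate 2 was the sham sample with little of it. The marker Nppa made up most of the ischemia sums, at 7431, 2051 and 1251 in replicates 1 to 3. FPKM of the markers Myl4 and Sln was 14.3 and 15.9 in sham replicate 2. It was 13.3 and 3.89 in ischemia replicate 2 and 12.2 and 3.8 in ischemia replicate 3. Myl7, the remaining marker, was also higher in sham replicate 2 (117) than in those ischemia samples. Ischemia replicate 1 was above sham replicate 2 in each marker. The 7 other cardiomyocyte markers were present in each sample. Among them Myl2 and Myl3, the ventricular myosin light chains, also set sham replicates 1 and 3 apart. FPKM of Myl3 was 796 and 1021 in those samples, 9024 in sham replicate 2 and 3180.3 to 5780.0 in ischemia, and FPKM of Myl2 was 366 and 346, 2795, and 594 to 1315. Sham replicate 3 also had the most smooth muscle marker RNA, a summed FPKM of 416 against 25.6 to 124 in the other samples. The labels gave no batch.

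The promoters of the subunits were searched for elements that heat shock factors bind. This choice was made with the higher subunit transcripts in ischemia already known. All 8 genes matched a RefSeq promoter of the GRCr8 build, from 250 bases before to 50 bases after the start site. The letters TTCNNGAA and GAANNTTC, each of which reads the same on both strands, were searched. At least 1 of these pairs lay in 3 of the 8 promoters, those of Cct4, Cct5 and Cct6a, and in 15.9% of 33469 rat promoters. In Cct4 both pairs overlapped to give 3 alternating units, a run that 0.798% of all promoters held. These stretches of 30 bases are shown because they hold the matched letters, which stand in capitals, 5′ to 3′ on the strand of the gene. The Cct4 stretch lies at chr14:101193073-101193102 on the plus strand, from base 17 to base 46 after the start site. The Cct5 stretch lies at chr2:84313925-84313954 on the minus strand, from base -181 to base -152. The Cct6a stretch lies at chr12:32519094-32519123 on the minus strand, from base -51 to base -22.
Cct4: ggcgtcgctTTCTGGAAGGTTCgtggaggc
Cct5: atagcggcggcTTCCAGAAggtactctgtg
Cct6a: gcgtaagacttTTCGAGAAgacccgcatag

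Other promoter letters were searched on both strands of the same windows. The CCAAT box (CCAAT) lay in 5 of the 8 promoters, those of Cct3, Cct5, Cct6a, Cct7 and Cct8, and in 37.5% of all promoters. The GC box (GGGCGG) lay in 6 of 8, all except Cct4 and Cct5, and in 33.1% of all promoters. The 8 promoters had a GC content of 52.3% to 66.0%, each above the median of 51.7% for all promoters. The E-box CACGTG lay in 0 of 8 and in 6.42% of all promoters. The cAMP response element core TGACGTCA lay in Cct4 alone among the subunits, from base -45 to base -38, and in 1.83% of all promoters. The 250 bases before the start of Cct6a and of Cct3 are shown because the transcripts of both genes passed the test below, the first with a heat shock pair in its window and the second without. The Cct6a sequence lies at chr12:32519073-32519322 on the minus strand and the Cct3 sequence at chr2:176063279-176063528 on the plus strand of GRCr8. Capitals mark the heat shock letters. A match of letters is a description and no measure of binding.
Cct6a: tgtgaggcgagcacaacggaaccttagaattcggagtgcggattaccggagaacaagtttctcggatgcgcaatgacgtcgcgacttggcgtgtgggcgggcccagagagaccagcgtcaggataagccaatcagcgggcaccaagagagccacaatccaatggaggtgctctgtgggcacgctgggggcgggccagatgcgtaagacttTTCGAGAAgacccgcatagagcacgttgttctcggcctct
Cct3: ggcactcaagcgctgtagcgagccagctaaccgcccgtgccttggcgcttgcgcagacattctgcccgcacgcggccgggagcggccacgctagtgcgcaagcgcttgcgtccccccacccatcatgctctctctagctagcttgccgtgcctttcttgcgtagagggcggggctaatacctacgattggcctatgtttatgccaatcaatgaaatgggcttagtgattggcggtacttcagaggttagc

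The comparison asked how transcript levels differed between ischemic and sham myocardium. All 8 subunit genes had higher FPKM in each ischemia sample than in each sham sample, by 1.48-fold to 2.44-fold in the fitted values. Cct6a, Cct4 and Cct3 rose at an adjusted p-value under 0.05 in the quasi-likelihood test of edgeR, and none fell. That is 3 of 8 genes, where 5.18% of all tested genes were called higher and 1.53% lower. DESeq2 called 7 of 8, all except Cct8, and 14.8% of all genes higher. With total-count scaling edgeR called Cct3 alone among the subunits and 3.65% of all genes, and without an expression filter Cct6a alone and 2.40% of all genes. The other 5 genes had edgeR adjusted p-values from 0.0524 to 0.119. An unadjusted p under 0.05 with a higher level in ischemia was reached by 8 of 8 subunits and by 18.2% of all genes, and groups that did not overlap in that direction by 8 of 8 subunits and by 23.6% of all genes. The median log2 fold change was 0.82 for the subunits and -0.001 for all tested genes. The number of calls moved with single samples over the whole table. With sham replicate 1, 2 or 3 or ischemia replicate 3 removed, edgeR called 0 subunits and 0 of all 13964 genes. Without ischemia replicate 2 it called 0 subunits and 3.31% of all genes higher, and without ischemia replicate 1 it called 5 subunits and 10.7% of all genes higher. Each subunit was above 0 in each of those fits. Without sham replicate 1, whose Y-linked reads go against its label, 8 of 8 subunits and 12.7% of all genes were higher at an unadjusted p under 0.05, and the median log2 fold change was 0.88 for the subunits and 0.006 for all genes.

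**Figure D1:**
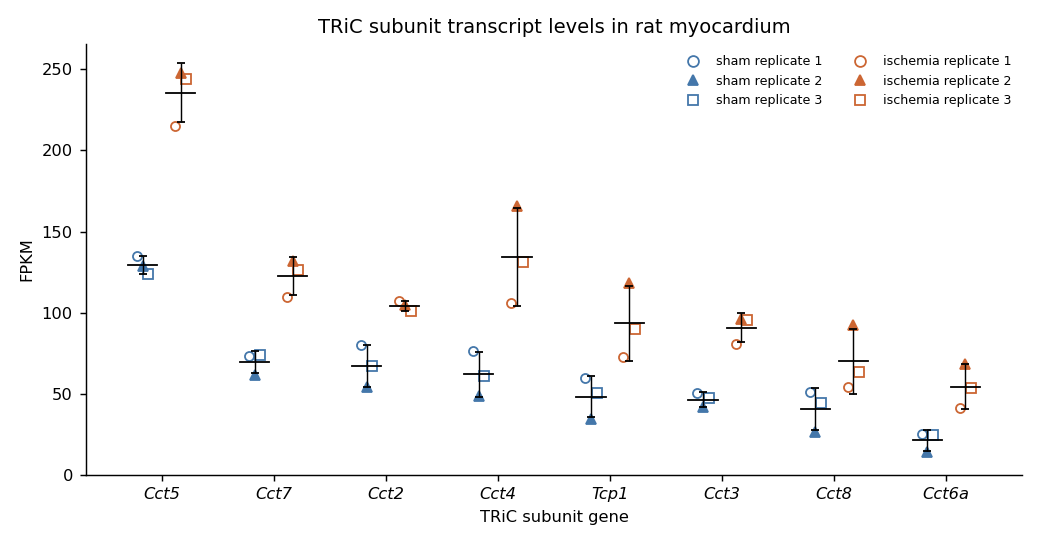
FPKM of the 8 TRiC subunit genes (horizontal axis, ordered by the sham mean) in 3 sham and 3 ischemia samples of rat myocardium, with 1 symbol per sample, a line at each group mean and bars of 1 SD. Every ischemia sample sits above every sham sample for each gene, with the narrowest gap for Cct8 (54.1 in the lowest ischemia sample against 50.9 in the highest sham sample).

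The subunits of the strong ATP-binding side are given first. Cct4 spans bases 107767392 to 107780270 of chromosome 14, plus strand, in the coordinates of the deposited table, whose genome build is not given in the sources used here. A mutation of this gene is known in a rat strain with sensory neuropathy. Its FPKM, given throughout in the order of replicates 1 to 3, was 76.2, 48.7 and 61.2 in sham and 106, 166 and 131 in ischemia. Its lowest ischemia value was 1.39 times its highest sham value, and its log2 fold change was 1.03 ± 0.22 (SE; edgeR adjusted p 0.0473).

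Cct5, which is mutated in a hereditary sensory neuropathy of humans, was the most abundant subunit per length in every sample. Its FPKM was 135, 129 and 124 in sham and 215, 248 and 244 in ischemia. Its sham samples lay closer together than for any other subunit relative to their mean, and the log2 fold change of 0.77 ± 0.20 (SE) had an edgeR adjusted p of 0.0637. It spans bases 84667633 to 84678790 of chromosome 2, minus strand.

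Tcp1, the founding member of the family, spans bases 48025663 to 48033396 of chromosome 1, minus strand. Its FPKM was 59.4, 34.4 and 50.4 in sham and 72.4, 118 and 89.9 in ischemia. Both groups spread widely without overlap, and the log2 fold change was 0.88 ± 0.23 (SE; edgeR adjusted p 0.0654). In the table the gene overlaps Acat2l1 on the opposite strand by 606 bases. Acat2l1 had 2813 counts over all samples.

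Cct2, at bases 60109974 to 60122805 of chromosome 7, minus strand, had the smallest fold change of the 8 genes. Its FPKM was 79.8, 54.4 and 66.9 in sham and 107, 105 and 101 in ischemia. Its ischemia samples were nearly level, unlike those of Cct4 and Tcp1, and the log2 fold change was 0.57 ± 0.17 (SE; edgeR adjusted p 0.0870).

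On the weak ATP-binding side, Cct6a had the lowest level and the largest fold change. It spans bases 30491416 to 30501860 of chromosome 12, minus strand. Its FPKM was 25.4, 13.9 and 24.6 in sham and 41.0, 68.6 and 53.5 in ischemia. Its lowest ischemia value was 1.61 times the highest sham value, the widest gap of the 8 genes, and the log2 fold change was 1.28 ± 0.25 (SE; edgeR adjusted p 0.0419). Its paralog Cct6b, known as the testis form, had at most 14 counts in any sample and was not tested.

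Cct3, at bases 187668796 to 187693610 of chromosome 2, plus strand, had the smallest SD of the 3 called genes. Its FPKM was 50.5, 41.6 and 47.1 in sham and 80.4, 96.0 and 95.5 in ischemia, a log2 fold change of 0.88 ± 0.18 (SE; edgeR adjusted p 0.0445). Cct7, at bases 117235023 to 117252265 of chromosome 4, plus strand, had an FPKM of 73.4, 61.5 and 73.9 in sham and 109.6, 132 and 126 in ischemia. Its log2 fold change of 0.73 ± 0.17 (SE) had an edgeR adjusted p of 0.0524. In both genes ischemia replicate 1 was the lowest of its group and still above each sham sample.

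Cct8, at bases 27130172 to 27141881 of chromosome 11, minus strand, had the least distance between the groups. Its FPKM was 50.9, 26.4 and 44.4 in sham and 54.1, 92.2 and 63.3 in ischemia. Ischemia replicate 1 stood 1.06 times above sham replicate 1, and the log2 fold change of 0.71 ± 0.26 (SE) had an edgeR adjusted p of 0.119. The gene overlaps Usp16 on the opposite strand by 170 bases. Usp16 had 8684 counts over all samples.

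Neutrophil and monocyte markers also separated the groups. All 9 of these markers were called higher, where 5.18% of all genes were, with a median log2 fold change of 6.11, and their summed FPKM was 16.3 to 25.2 in sham and 537 to 3927 in ischemia. As for all genes, none was called without sham replicate 1, 2 or 3 or ischemia replicate 3. The subunit transcripts are made by all cells, so changes in the cell mixture and changes in RNA per cell cannot be told apart. With the mean level of these markers as a covariate, 7 of 8 subunits had a positive log2 fold change, from -0.10 for Cct8 to 0.84, and none passed (edgeR adjusted p 0.752 to 0.975), nor did any of the 13964 genes. That mean did not overlap between the groups (at most 1.482 in sham and at least 4.904 in ischemia, log2 scale), and with it 983 of all genes had an unadjusted p under 0.05, against 4528 without it. The part of these cells in the higher subunit levels was not tested. With the mean of the atrial markers as a covariate all 8 subunits were above 0, and 7 of 8, against 10.4% of all genes, were higher at an unadjusted p under 0.05, while edgeR called 0 subunits and 0 of all genes. None of the fibroblast, endothelial, smooth muscle, atrial and other cardiomyocyte markers was called by edgeR. At an unadjusted edgeR p under 0.05, 2 of 4 tested fibroblast markers and 2 of 7 other cardiomyocyte markers were lower, where 14.2% of all genes were. The summed FPKM of the fibroblast markers was 669, 331 and 1125 in sham and 414, 212 and 172 in ischemia, and that of the smooth muscle markers was 82.6, 55.3 and 416 against 124, 25.6 and 41.9, with sham replicate 3 the highest in both. The endothelial markers had a median log2 fold change of -0.02, and the other cardiomyocyte markers ran from -2.38 for Myh6 to 0.20 for Myl3. Of 4 proliferation markers Mki67 and Top2a were under the filter, at an FPKM of at most 0.641 and 0.731 in any sample, and Cdk1 and Ccnb1 were tested and had log2 fold changes of 0.05 and -0.22 (edgeR adjusted p 0.936 and 0.728).

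The summed FPKM of the 8 subunits was 551, 410.4 and 493 in sham and 785, 1026 and 904 in ischemia. Group means were 485 ± 70.6 (SD, n = 3) and 905 ± 120 (SD, n = 3), a 1.87-fold difference of the geometric means. The exact permutation test of this sum gave a two-sided p of 0.1, the smallest that 3 samples against 3 allow. Sham replicate 2 was the lowest sample and ischemia replicate 2 the highest.

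The order of the subunits by level was then compared between the groups. Cct5 was the highest and Cct6a the lowest in each of the 6 samples, and the ratio of the highest to the lowest FPKM ran from 5.06 to 9.31 in sham and from 3.61 to 5.24 in ischemia. In sham the mean order was Cct5, Cct7, Cct2, Cct4, Tcp1, Cct3, Cct8 and Cct6a. The ranges of Cct5 and Cct7 did not overlap, nor did those of Cct8 and Cct6a, while each neighbouring pair between Cct7 and Cct8 overlapped. In ischemia the mean order was Cct5, Cct4, Cct7, Cct2, Tcp1, Cct3, Cct8 and Cct6a. There Cct5 was separate from Cct4 and Cct7 from Cct2, and the other neighbours overlapped.

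Whether the subunits kept their proportions was asked with the share of each in the summed FPKM. Cct6a took 4.61%, 3.39% and 4.99% in sham and 5.22%, 6.69% and 5.91% in ischemia, and was the only subunit whose shares did not overlap between the groups. The means of 4.33% and 5.94% gave an exact permutation p of 0.1 (two-sided) and of 0.6 after adjustment over the 8 subunits. The share of Cct4 averaged 12.7% ± 1.02 (SD, n = 3) in sham against 14.7% ± 1.34 in ischemia. That of Cct2 averaged 13.8% ± 0.639 (SD, n = 3) against 11.7% ± 1.75. Without ischemia replicate 2 the difference between the means was 1.28 points for Cct4 and -1.35 points for Cct2, each over 1.5 times smaller. The other 5 subunits differed by 0.94 points or less between the group means, a limit that moved with single samples. The difference became -2.23 points for Cct5 and -1.39 points for Cct7 without sham replicate 1, and -1.50 points for Cct8 without sham replicate 2. That of Cct5, -0.94 points with all samples, turned to 1.28 without sham replicate 2 and to 0.06 without ischemia replicate 2. That of Tcp1, 0.42 points with all samples, turned to -0.29 and -0.22 with the same samples left out. No adjusted p in this family was under 0.6, and at 3 samples against 3 none could pass.

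**Figure D2:**
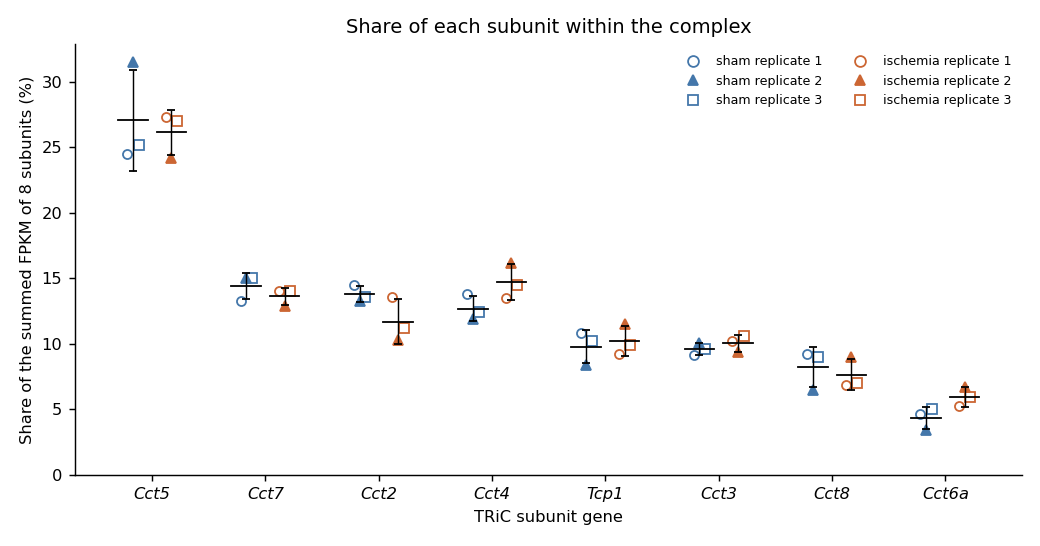
Share of each TRiC subunit gene in the summed FPKM of the 8 subunits (vertical axis, percent) in 3 sham and 3 ischemia samples, with 1 symbol per sample, a line at each group mean and bars of 1 SD. The shares of the groups overlap for each subunit except Cct6a, whose highest sham share was 4.99% and lowest ischemia share 5.22%.

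Within the groups the subunits did not vary alike. In Cct8, Tcp1, Cct6a and Cct4 ischemia replicate 2 stood 1.57, 1.45, 1.45 and 1.40 times above the mean of replicates 1 and 3. In Cct2, Cct3, Cct5 and Cct7 the same ratio was 1.01, 1.09, 1.08 and 1.12. Sham replicate 2 showed the opposite. It lay at 0.554, 0.626, 0.557 and 0.709 of the other sham samples for Cct8, Tcp1, Cct6a and Cct4, and at 0.742, 0.852, 0.998 and 0.835 for Cct2, Cct3, Cct5 and Cct7. Over the 8 subunits both ratios had a Pearson correlation of -0.83, which is a description over genes that share the same libraries. These sets of 4 were formed after their values were seen, and they do not follow the sides of the ring. Over the 6 samples the correlation of log2 CPM (counts scaled by library size) between pairs of subunits ran from 0.690 for Cct5 and Cct8 to 0.997 for Cct3 and Cct7, with a median of 0.919 over 28 pairs, which includes the difference between the groups that all 8 share. Sham replicate 2 was also the sham sample with a summed atrial FPKM of 215, and ischemia replicate 2 the sample with the neutrophil and monocyte sum of 3927. The part of either in these ratios was not tested.

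**Figure D3:**
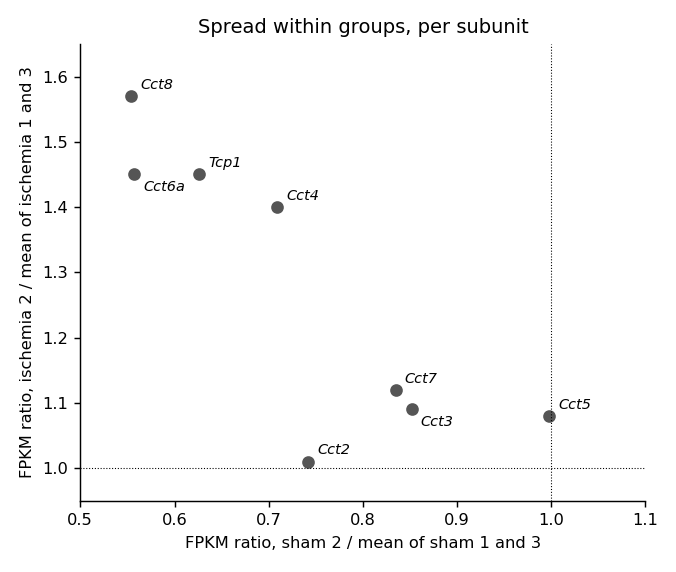
FPKM of replicate 2 divided by the mean of replicates 1 and 3, in sham (horizontal axis) and in ischemia (vertical axis), with 1 point per TRiC subunit gene and dotted lines at a ratio of 1. Cct8, Cct6a, Tcp1 and Cct4 lie at the upper left, low in sham replicate 2 and high in ischemia replicate 2, and Cct5 lies at 0.998 and 1.08.

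The genes around the complex were read from the same fit. Of 72 genes in 9 lists of cofactors, clients and related factors, 67 were tested, 35 had a log2 fold change above 0, 3 of 67 were called higher, where 5.18% of all genes were, and 0 of 67 lower, where 1.53% were, with a median of 0.06. At an unadjusted edgeR p under 0.05 there were 15 of 67 higher, where 18.2% of all genes were, and 6 of 67 lower, where 14.2% of all genes were. DESeq2 called 12 of 67 higher and 4 of 67 lower, where it called 14.8% and 12.5% of all genes. Against this median of 0.06, that of the subunits was 0.82. At an unadjusted p under 0.05 prefoldin had 2 of 6 genes higher and 0 lower. Prefoldin Pfdn4 had the highest log2 fold change of its list (0.93, edgeR adjusted p 0.119), with FPKM of 11.1, 10.4 and 15.2 in sham and 14.7, 36.6 and 23.4 in ischemia. Pfdn5 had the lowest (-0.29, edgeR adjusted p 0.314). None of the 6 prefoldin genes passed.

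Of 3 tested phosducin-like cofactors none passed, with values from -0.13 for Pdcl to 0.48 for Pdcl3 (edgeR adjusted p 0.837 and 0.263). Ruvbl2, an AAA+ ATPase of the R2TP co-chaperone, led the 7 prefoldin-like and R2TP genes. Its FPKM was 14.4, 14.8 and 16.6 in sham and 25.5, 44.5 and 29.1 in ischemia, and its log2 fold change of 1.01 had an edgeR adjusted p of 0.0507. Uxt was the lowest of that list (-0.17, edgeR adjusted p 0.548), and none of the 7 passed.

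The tested genes of the list of other chaperonins were Hspd1 and Hspe1 of mitochondria and Mkks, Bbs10 and Bbs12. The median log2 fold change over these 5 was -0.06, and none passed. Hspd1 was at 0.09, Mkks at -0.47 and Bbs12 at -0.06 (edgeR adjusted p 0.776, 0.141 and 0.924). Hspe1, the lid of the mitochondrial chaperonin, was the highest at 0.47 (edgeR adjusted p 0.159), and Bbs10, which assists assembly of the BBSome, the lowest at -0.59 (0.216). FPKM of Hspe1 was 244, 236 and 201 in sham and 299, 357 and 357 in ischemia, without overlap. Hspd1, the barrel of the mitochondrial chaperonin, had FPKM of 133, 82.9 and 116 in sham and 108, 156 and 109.9 in ischemia, and its groups overlapped.

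Of 16 tested tubulins 2 were called higher, where 5.18% of all genes were. Tubb6, a beta tubulin, had an FPKM of 19.0, 8.62 and 24.7 in sham and 94.3, 235 and 155 in ischemia (log2 fold change 3.16 ± 0.44 SE, edgeR adjusted p 0.0291). Tuba1c, an alpha tubulin, rose from 50.6, 25.5 and 65.1 to 121, 200.4 and 195 (1.82 ± 0.34 SE, edgeR adjusted p 0.0384). The neuronal tubulin Tubb4a had the lowest value of the list (-4.45 ± 1.21 SE, edgeR adjusted p 0.0716). Its FPKM was 3.06, 0.467 and 14.1 in sham and 0.444, 0.144 and 0.186 in ischemia. Of the tested tubulins 7 were above 0 and the median was -0.04.

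Acta1, the skeletal actin, had the highest log2 fold change (1.66, edgeR adjusted p 0.230) and Acta2, the smooth muscle actin, the lowest (-1.78, edgeR adjusted p 0.205) of the 6 actins, and neither passed. None of the other 4 actins passed either. The groups of Acta1 and of Acta2 overlapped. FPKM of Acta2 was 76.9, 57.6 and 423 in sham and 97.3, 24.8 and 39.5 in ischemia. Actb and Actg1, the cytoplasmic actins, had FPKM of 381 to 520.4 and 202 to 271 in sham and of 731 to 1759 and 400.1 to 1409.7 in ischemia, without overlap (2.55-fold and 3.13-fold in the fitted values, edgeR adjusted p 0.0588 and 0.0658). Actg2, a smooth muscle actin, had a log2 fold change of -1.55 (edgeR adjusted p 0.395) and its groups overlapped. Actc1 is the main actin of the cardiac sarcomere. Its FPKM was 10338, 10827 and 10210.2 in sham and 2654, 2879 and 4709 in ischemia, without overlap, and its log2 fold change of -1.70 had an edgeR adjusted p of 0.0536. Actins and tubulins are families of very similar genes, and their reads could have been divided among copies. Of 7 tubulin folding cofactors none passed, with values from -0.48 for Arl2 to 0.73 for Tbcb (edgeR adjusted p 0.169 and 0.0598). Of 14 other clients 1 was called higher, where 5.18% of all genes were, and this was Stat3, a transcription factor. Its FPKM was 40.1, 35.2 and 38.4 in sham and 117, 99.6 and 102 in ischemia (1.40 ± 0.19 SE, edgeR adjusted p 0.0286). The G-protein subunit Gnb5 had the lowest value (-1.50, edgeR adjusted p 0.0697). None of the 3 heat shock factor genes passed, from -0.99 for Hsf4 to 0.09 for Hsf2 (edgeR adjusted p 0.222 and 0.851).

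**Figure D4:**
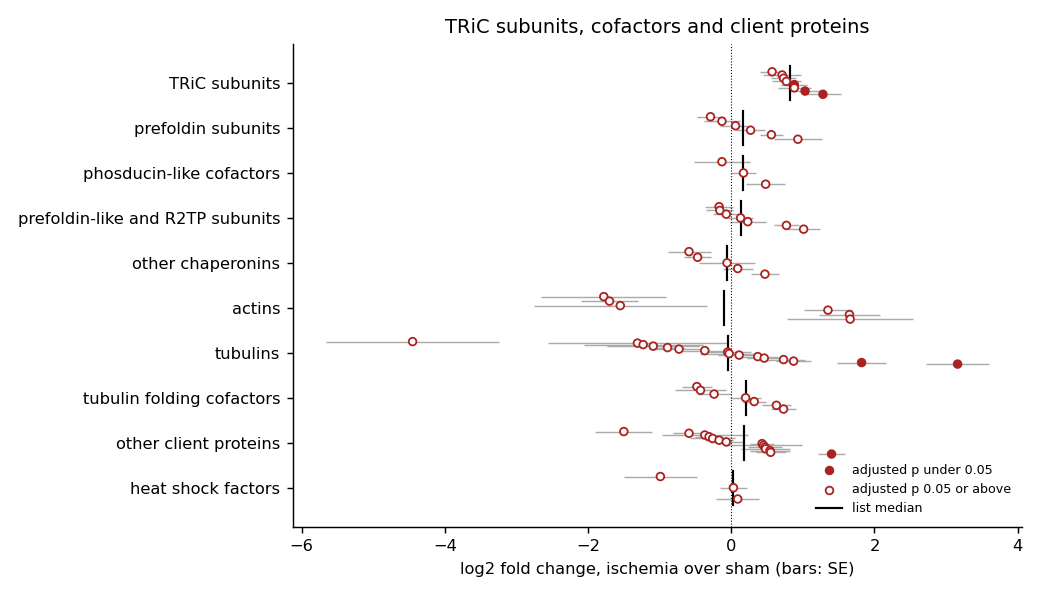
Log2 fold change of ischemia over sham (horizontal axis, with bars of 1 SE) for the tested genes of the TRiC list and of 9 lists of cofactors and clients (vertical axis), with a vertical line at each list median and filled points for an adjusted p under 0.05. The 8 TRiC subunits lie between 0.57 and 1.28, around a median of 0.82, while the medians of the other lists lie between -0.10 and 0.20.

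The genes whose pattern was most like that of the subunits were sought by the Pearson correlation of log2 CPM with the mean of the 8 subunits over the 6 samples. The 5 highest among 13956 genes were Nifk (0.9987), Rpl22l1 (0.9975), Ap1ar (0.9971), Dclre1b (0.9960) and Slc31a2 (0.9959). Nifk encodes a nucleolar protein, Rpl22l1 a paralog of a ribosomal protein, Ap1ar a regulator of the AP-1 adaptor complex, Dclre1b a DNA repair nuclease and Slc31a2 a copper transporter. FPKM of Nifk was 15.1, 10.03 and 13.5 in sham and 26.8, 42.6 and 35.9 in ischemia, with the same highest and lowest samples as the subunit sum. Nifk (log2 fold change 1.37), Slc31a2 (1.09) and Rpl22l1 (0.96) were called higher and the others were not, and since the likeness includes the difference between the groups, those calls are a description. A correlation of at least 0.95 was reached by 604 genes, all measured in the same 6 libraries.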

How the data were processed

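Processed values of 6 samples of rat myocardium were analysed, 3 sham and 3 ischemia, grouped by the treatment label. The authors deposited 1 table with raw read counts and FPKM per gene and sample. The counts deposited by the authors were not normalized, and the FPKM deposited by the authors were scaled by gene length and library size. STAR and HTSeq are named in the submitters' processing notes, and versions and the genome build are not given in the sources used here.

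Counts were fitted with the quasi-likelihood test of edgeR 4.0.16 (R 4.3.3) over 13964 genes (mean FPKM 0.5 or more), with TMM scaling and no covariate. Benjamini-Hochberg adjustment covered every gene in the fit, and calls needed an adjusted two-sided p under 0.05. The SE came from the F statistic. Log2 CPM used a pseudocount of 0.5. Sums and shares were compared with exact permutation tests. The script was tested on simulated data. The alternatives used limma 3.58.1, DESeq2 1.42.0, other scalings, filters and covariates, and each sample left out. Total counts ranged from 68529126 to 79591989. Same-numbered samples of the groups had correlations of deviations of -0.0701, -0.157 and -0.194, so the replicate numbers were not taken as pairs.

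The members, lists and tests were chosen with earlier results of these data known. Named were all members, the called, highest and lowest genes of each list, and the 5 genes most like the members. Cct6b, Hspd1, Mkks, Bbs12, the other actins, some cell type markers and 2 overlapping genes were also named, chosen after their values were seen. Col1a2 and Pecam1 of the marker lists were not found in the table under these symbols.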

Additional observations from a re-analysis of the deposited data

How the results depend on the processing

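All 8 subunits had a log2 fold change above 0 under 16 of 17 alternative fits. The exception was the neutrophil and monocyte covariate, with which Cct8 was -0.10. The median of the subunits ranged from 0.65 with that covariate to 0.91. The number called was less stable than the direction, for the subunits and over all genes, and the cause was not tested. Against 3 subunits and 5.18% of all genes called higher, the count was 1 with total-count scaling (3.65% of all genes), 1 without an expression filter (2.40%), 7 with DESeq2 (14.8%) and 5 with limma on log2(FPKM + 0.1) (6.09%). It was 0 in edgeR with the replicate block, with the atrial covariate and with the neutrophil and monocyte covariate, each of which called 0 of all genes. Unadjusted p-values under 0.05 were then found for 6, 7 and 0 subunits and for 3349, 2740 and 983 genes. With each sample left out in turn, 0 to 5 subunits were called higher, with a median of 0.76 to 0.89. Of those 6 fits, 4 called 0 of all genes, and the fit without ischemia replicate 1 called 5 subunits and 1490 genes higher.

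Of 67 genes in the cofactor and client lists, 12 were called higher and 4 lower with DESeq2 (14.8% and 12.5% of all genes). At a mean FPKM of at least 5, a filter that left out some of the 67, 2 were lower (3.57% of the genes that passed it). With limma at a pseudocount of 0.1 or 1, 1 was lower (262 and 209 of all genes). With the replicate block and with either covariate 0 were higher, as for all genes. With a sample left out, 0 to 9 were higher (0 to 10.7% of all genes) and 0 to 2 lower (0 to 7.98%). The share of Tcp1 differed by -0.29 to 0.92 points and that of Cct5 by -2.23 to 1.28 points with a sample left out, turning sign without sham replicate 2 (-0.29 and 1.28) and without ischemia replicate 2 (-0.22 and 0.060).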
